A study of Mus musculus with 6 samples.

Results

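The genes described here bring fatty acids into cells and bind them once inside, and they were followed in the mammary fat pad of mice with and without Pxmp2, a channel protein of the peroxisomal membrane. The 10 genes are Lpl, Gpihbp1, Angptl4, Cd36, Slc27a1, Slc27a4, Acsl1, Fabp3, Fabp4 and Fabp5, and a probe set counted as a member when the platform annotation gave it a single symbol equal to one of these. This found 19 of the 45037 probe sets on the array, for 9 of the 10 genes. Probe sets of Acsl1 are not named in the annotation used here, so this long-chain acyl-CoA synthetase was not analysed here.

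RNA came from mammary fat pads 4 and 9 of 3 wild-type (WT) and 3 Pxmp2-/- females, all on the C57BL/6J background. In both groups the ovaries were removed at 21 days of age and estradiol was given at 31 days, which set a common start of puberty, and the pads were taken 8 h after that. The sources used here do not say how the Pxmp2 allele was disrupted. By its title the series concerns the part of Pxmp2 in mammary epithelial development. The 6 arrays had maxima between 20504 and 22654 arbitrary units and medians between 98.5 and 105. Pxmp2 read 2465 to 2797 in the WT mice and 260 to 308 in the Pxmp2-/- mice, a log2 difference of -3.18 ± 0.10 (limma adjusted p = 6.14e-05). White adipocyte markers were strongly expressed, with a summed intensity of 67177 to 71596 over the 7 markers measured. Only 2 of 10 mammary epithelial markers exceeded the level filter, the lower bound for testing. That bound was set on the mean log2 level over the 6 arrays and corresponds to an intensity of 59.1.

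Fat cells take most of their fatty acids from triglycerides carried in blood lipoproteins. Lipoprotein lipase cuts these triglycerides at the capillary wall, where Gpihbp1 holds the enzyme and Angptl4 inactivates it. The released fatty acids cross the adipocyte membrane with the help of Cd36 and the Slc27a transport proteins, are joined to coenzyme A by acyl-CoA synthetases, and move through the cytosol on fatty acid binding proteins. In adipose tissue many of these genes are targets of the nuclear receptor Pparg.

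None of the fatty acid uptake and binding genes differed between genotypes past the threshold. Of the 18 tested member probe sets, covering 9 genes, 0 had an adjusted p under 0.05 in limma and 0 had an unadjusted p under 0.05. Across all 27022 tested probe sets, 0.0629% passed the adjusted threshold and 16.6% had an unadjusted p under 0.05. The smallest adjusted p among the members was 0.404, for Slc27a4. The 95% interval of the difference lay within 1.5-fold in either direction for 15 of the 18 probe sets, and the exceptions were 1 probe set each of Fabp3, Fabp4 and Angptl4. Those 15 include all 8 probe sets at 50% or more of the array maximum on all 6 arrays, where mice hardly differed. The median log2 difference over the 18 was -0.03, against -0.03 over all tested probe sets, with 5 members fitted higher and 13 lower. After quantile normalization 8 were fitted higher and 10 lower. Differences are Pxmp2-/- minus WT on the log2(intensity + 16) scale, which understates changes of dim transcripts, and errors on them are standard errors. In whole fat pads, fewer cells of a type and less RNA per cell cannot be told apart.

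**Figure D1:**
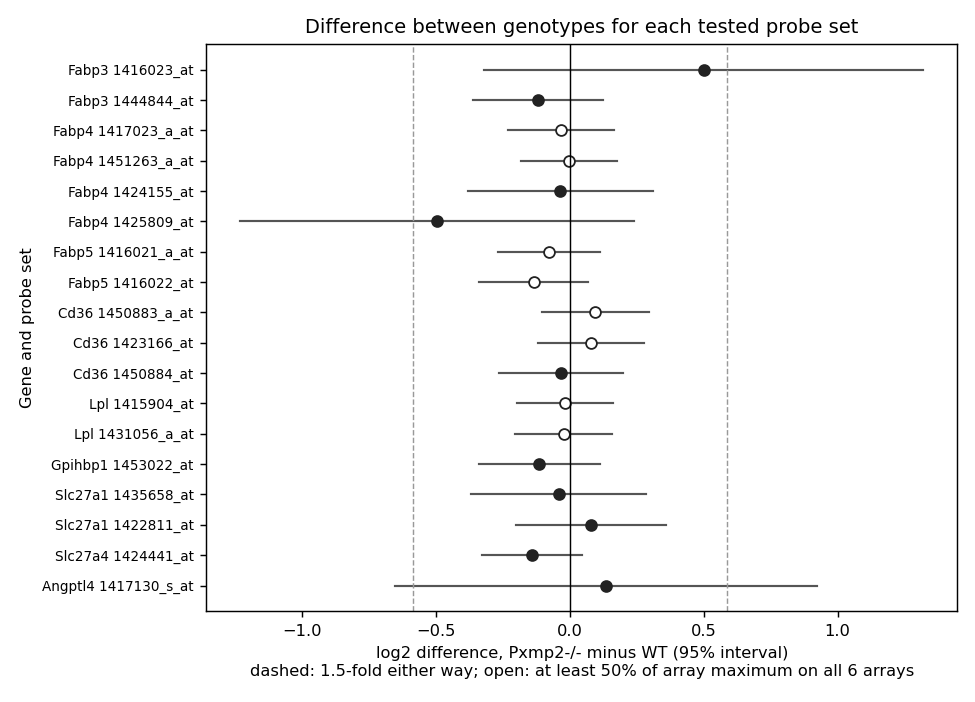
The log2 difference between genotypes, Pxmp2-/- minus WT, is shown for each of the 18 tested probe sets with its 95% interval, 3 mice per group. Every interval spans 0, and those of Fabp3 1416023_at, Fabp4 1425809_at and Angptl4 1417130_s_at reach beyond the dashed lines at 1.5-fold. Open points mark the 8 probe sets at 50% or more of the array maximum on all 6 arrays.

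At the capillary wall, the lipoprotein lipase gene Lpl varied little between any of the mice. Its probe set 1415904_at read 18303, 18649 and 18334 in WT mice 1 to 3 and 17797, 18719 and 18063 in Pxmp2-/- mice 1 to 3. The highest of the 6 mice exceeded the lowest by a factor of 1.05, and the log2 difference was -0.02 ± 0.08 (limma adjusted p = 0.92). The other probe set, 1431056_a_at, read 16441, 16953 and 16645 in WT mice 1 to 3 and 15996, 16986 and 16252 in Pxmp2-/- mice 1 to 3. WT mice thus averaged 16680 ± 258 and Pxmp2-/- mice 16411 ± 514 (SD, n = 3 per genotype), a log2 difference of -0.02 ± 0.08 (limma adjusted p = 0.899). Both probe sets had their lowest value in Pxmp2-/- mouse 1 and their highest in Pxmp2-/- mouse 2, with overlapping groups. Both also stood high on the intensity scale, at 74.2% to 88.1% of the array maximum.

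Gpihbp1, the endothelial protein that carries Lpl to the capillary lumen, had a single probe set, 1453022_at. It read 5433, 5706 and 6297 in WT mice 1 to 3 and 5223, 5787 and 5081 in Pxmp2-/- mice 1 to 3. The groups overlapped, as Pxmp2-/- mouse 2 lay above WT mice 1 and 2, and the log2 difference was -0.12 ± 0.10 (limma adjusted p = 0.568). Endothelial markers were lower in the same arrays, with 9 of 10 fitted lower, a median log2 difference of -0.29 and none past the threshold (smallest limma adjusted p = 0.134). Their summed intensity was 21531 to 22679 in WT and 17570 to 19590 in Pxmp2-/- mice, without overlap. Their part in the Gpihbp1 values was not tested.

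Angptl4, a secreted inhibitor of Lpl that rises in fasting, varied more between mice of the same genotype than between genotypes. Its probe set 1417130_s_at read 3276, 7328 and 8460 in WT mice 1 to 3 and 5858, 8180 and 5617 in Pxmp2-/- mice 1 to 3. WT mouse 1 was lowest and WT mouse 3 highest, a 2.58-fold span within one group that enclosed all 3 Pxmp2-/- mice. The log2 difference was 0.13 ± 0.34, with a 95% interval from -0.66 to 0.92 (limma adjusted p = 0.865). Without WT mouse 1 the sign turned to -0.29, and without Pxmp2-/- mouse 2 to -0.04. The within-group SD of this probe set, 0.56 on the log2 scale, was at the 99.4th percentile of all tested probe sets. A second probe set, 1453410_at, lay below the level filter and was not tested. It read 28.2, 72.3 and 113 in WT mice and 29.1, 38.1 and 28.8 in Pxmp2-/- mice, with the same mice of the WT group at the bottom and the top.

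Its relative Angptl8, which lowers Lpl activity and rises on feeding, was highest and lowest in the opposite mice. Angptl8 read 2752, 1393 and 622 in WT mice 1 to 3 and 1280, 705 and 1069 in Pxmp2-/- mice 1 to 3, a log2 difference of -0.43 ± 0.48 (limma adjusted p = 0.671). WT mouse 1, lowest for Angptl4, was highest for Angptl8, and WT mouse 3 and Pxmp2-/- mouse 2, the highest for Angptl4, were the lowest for Angptl8. The 3 mice between these extremes, Pxmp2-/- 3, Pxmp2-/- 1 and WT 2 from low to high, ran in the same order for both genes. Angptl8 belongs to the wider list of pathway genes and was singled out after its values were seen. The feeding state of the mice is not given in the labels, and its part in these values was not tested.

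At the cell membrane, the scavenger receptor Cd36, also called fatty acid translocase, had 3 probe sets that did not share a direction. The one probe set not near the array maximum, 1450884_at, read 5659, 5757 and 6718 in WT mice 1 to 3 and 6101, 5544 and 6026 in Pxmp2-/- mice 1 to 3, a log2 difference of -0.03 ± 0.10 (limma adjusted p = 0.884). The Pxmp2-/- values all fell inside or just under the WT range. For 1450883_a_at the mice read 14177, 15280 and 15526 (WT) and 15251, 16043 and 16734 (Pxmp2-/-), a log2 difference of 0.09 ± 0.09 (limma adjusted p = 0.596). For 1423166_at the log2 difference was 0.08 ± 0.08. In the last pair the lowest mouse was WT 1 and the highest Pxmp2-/- 3, with groups that overlapped. Cd36 lies on chromosome 5, as does Pxmp2, and it was the one analysed member on that chromosome.

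The fatty acid transport proteins Slc27a1 and Slc27a4 combine uptake with acyl-CoA synthetase activity. Both probe sets of Slc27a1 were highest in WT mouse 3 and lowest in WT mouse 2, so the WT group enclosed every Pxmp2-/- value. Probe set 1435658_at read 4999, 4265 and 6110 in WT mice 1 to 3 and 5388, 4584 and 4828 in Pxmp2-/- mice 1 to 3. Probe set 1422811_at read 4908, 4118 and 5584 in WT mice and 5191, 4883 and 5248 in Pxmp2-/- mice. The log2 differences were -0.04 ± 0.14 and 0.08 ± 0.12 (limma adjusted p = 0.9 and 0.768). The sign of either turned when single mice were left out. Probe set 1435658_at differed by 0.0919 without WT 3 and by 0.0088 without Pxmp2-/- 2, and 1422811_at by -0.0364 without WT 2.

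Slc27a4 was the only tested member whose groups did not overlap on the deposited scale. Its probe set 1424441_at read 775, 801 and 832 in WT mice 1 to 3 and 731, 745 and 705 in Pxmp2-/- mice 1 to 3. Every Pxmp2-/- mouse lay under every WT mouse, by a small amount, with a log2 difference of -0.14 ± 0.08 and a 95% interval from -0.33 to 0.05 (limma adjusted p = 0.404). That is 1 of 18 tested members (5.56%), against 22.8% of all tested probe sets with groups that did not overlap. After median centring a Fabp5 probe set, 1416022_at, separated as well, which made 11.1% of members against 24.2% of all tested probe sets at that scaling.

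Inside the cell, the adipocyte fatty acid binding protein gene Fabp4 had 4 probe sets that spread over the mice to very different degrees. Probe set 1417023_a_at held the highest value of the whole array in WT mouse 1 and Pxmp2-/- mouse 2, and stood at 93.2% or more of the maximum in all mice. It and 1451263_a_at differed by -0.03 ± 0.08 and -0.0038 ± 0.08 log2 between genotypes, and the highest mouse exceeded the lowest by factors of 1.12 and 1.05. Probe set 1424155_at, which was not near the maximum, read 7369, 9861 and 10705 in WT mice 1 to 3 and 8511, 9821 and 8647 in Pxmp2-/- mice 1 to 3. Its log2 difference was -0.04 ± 0.15 (limma adjusted p = 0.922), with WT mouse 1 lowest and WT mouse 3 highest.

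The last Fabp4 probe set, 1425809_at, had the highest ratio of highest to lowest mouse among the tested members. It read 4328, 5961 and 7501 in WT mice 1 to 3 and 5873, 4599 and 2545 in Pxmp2-/- mice 1 to 3, a 2.95-fold span over the 6 mice. Pxmp2-/- mouse 3 alone lay under the WT range, and the log2 difference was -0.50 ± 0.32, with a 95% interval from -1.23 to 0.24 (limma adjusted p = 0.45). Without Pxmp2-/- mouse 3 the difference was -0.15, and without Pxmp2-/- mouse 1 it was -0.76 (limma). Pxmp2-/- mouse 3 was also lowest in 1417023_a_at, by a small margin, and lay within the WT range in 1424155_at and 1451263_a_at. The annotation gives this probe set no accession.

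Fabp5, the epidermal type that is also made in adipocytes and macrophages, was fitted lower in both probe sets. Probe set 1416022_at read 13449, 14393 and 14458 in WT mice 1 to 3 and 13635, 12739 and 12139 in Pxmp2-/- mice 1 to 3, a log2 difference of -0.14 ± 0.09 (limma adjusted p = 0.451). Pxmp2-/- mouse 1 reached into the WT range, and the other two lay under it. For probe set 1416021_a_at WT mice averaged 19974 ± 816 and Pxmp2-/- mice 18915 ± 502 (SD, n = 3 per genotype), a log2 difference of -0.08 ± 0.08 (limma adjusted p = 0.647). Macrophage markers moved in the other direction in these arrays, with 7 of 10 fitted higher, a median log2 difference of 0.21 and none past the threshold (smallest limma adjusted p = 0.0589). The summed macrophage intensity was 8398 to 9144 in WT and 10041 to 12656 in Pxmp2-/- mice, without overlap, and its part in the levels of Fabp5, Fabp4, Cd36 and Lpl, which macrophages also express, was not tested.

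**Figure D2:**
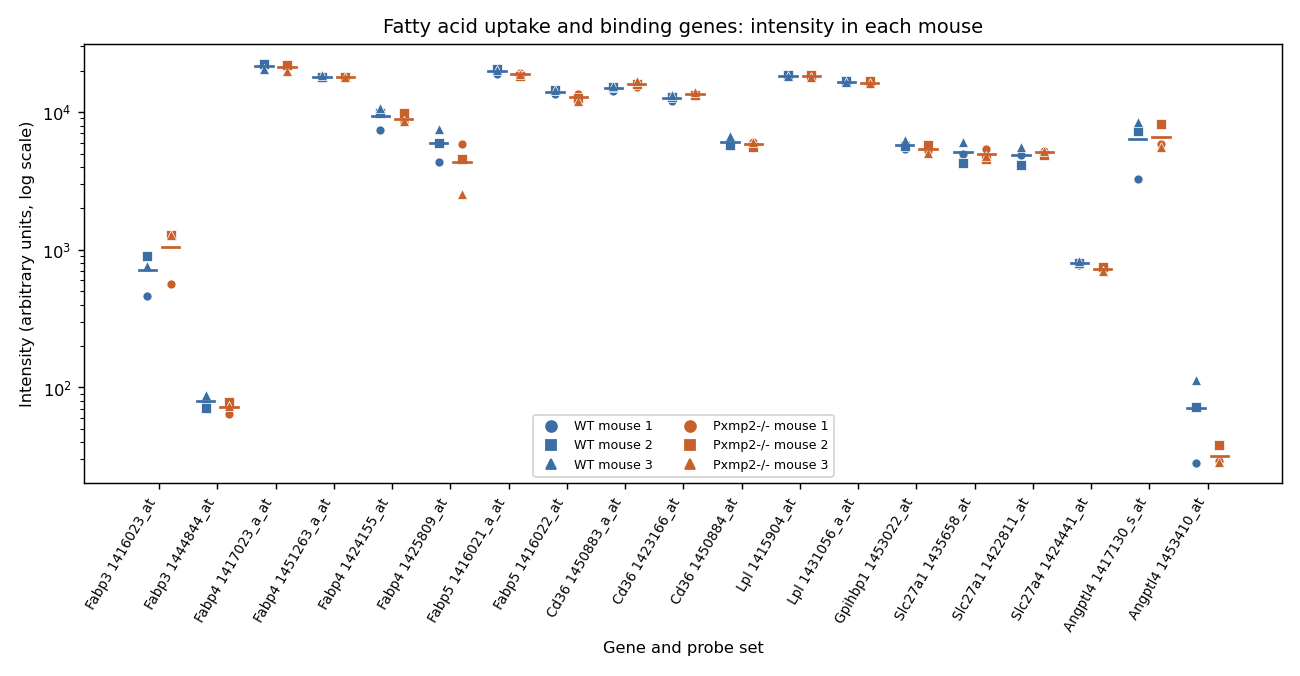
Intensities of the 19 member probe sets are shown on a log scale for each WT and Pxmp2-/- mouse, with a line at each group mean (n = 3 each). Values of Lpl, Fabp5, Cd36 and 2 of the Fabp4 probe sets lie close together, whereas Fabp3 1416023_at, Fabp4 1425809_at and both Angptl4 probe sets spread widely within a genotype.

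Fabp3, the type of heart, skeletal muscle and brown fat, had the highest fitted difference of the list. Its probe set 1416023_at read 464, 907 and 764 in WT mice 1 to 3 and 567, 1286 and 1271 in Pxmp2-/- mice 1 to 3. Pxmp2-/- mice 2 and 3 lay above all WT mice, but Pxmp2-/- mouse 1 lay between WT 1 and WT 3. The log2 difference was 0.50 ± 0.35, or 1.41-fold, with a 95% interval from -0.32 to 1.32 (limma adjusted p = 0.493). It was 0.88 without Pxmp2-/- mouse 1 (limma adjusted p = 0.154) and 0.23 without WT mouse 1. The other probe set, 1444844_at, was dim. WT mice averaged 79.4 ± 8.23 and Pxmp2-/- mice 71.8 ± 7.17 (SD, n = 3 per genotype), and the groups, which overlapped, differed by -0.12 ± 0.10 (limma adjusted p = 0.582).

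The mice ranked on Fabp3 1416023_at, as was noticed after the values were seen, in the same order as on the summed intensity of the brown adipocyte markers. All 7 brown markers exceeded the level filter, and their summed intensity was 33202, 41128 and 37438 in WT mice 1 to 3 and 36244, 42988 and 42234 in Pxmp2-/- mice 1 to 3. From low to high, both measures ran WT 1, Pxmp2-/- 1, WT 3, WT 2, Pxmp2-/- 3 and Pxmp2-/- 2. Ucp1, which encodes the uncoupling protein of brown fat and is one of the 7, gave the order too, with 7106, 10751 and 10249 in WT and 9357, 11098 and 10991 in Pxmp2-/- mice. The other 6 markers did not: 1 of the 13 tested brown marker probe sets, that of Ucp1, had this order. Cox7a1 was highest in WT 2, Cidea and Elovl3 were highest in Pxmp2-/- 3, and Cox8b was lowest in Pxmp2-/- 1. Of the 7 cell type lists, 1 had the order of Fabp3, as did 73 (0.27%) of all tested probe sets and no other tested member. By the most intense probe set of each gene, all 7 brown markers were fitted higher in Pxmp2-/- mice, by a median of 0.18 log2, and none passed the threshold (smallest limma adjusted p = 0.337). Of 10 markers of skeletal muscle, another site of Fabp3, 3 exceeded the level filter. The summed intensity of their most intense probe sets was 666 to 842 in WT and 691 to 760.4 in Pxmp2-/- mice. Most of this sum came from 1444643_at of the muscle creatine kinase gene Ckm, at 536 to 692 in WT and 484 to 587 in Pxmp2-/- mice. Ckm differed by 0.85 ± 0.21 in 1417614_at, with separate groups, and by -0.14 ± 0.12 in 1444643_at (limma adjusted p = 0.182 and 0.586). In 1417614_at it read 45.7, 54 and 54.6 in WT mice 1 to 3 and 151, 73.9 and 102 in Pxmp2-/- mice 1 to 3. Pxmp2-/- mouse 1, the highest there, exceeded only WT mouse 1 for Fabp3 1416023_at. The myosin light chain gene Mylpf differed by 0.54 ± 0.19 (limma adjusted p = 0.249) and the myoglobin gene Mb by 0.04 ± 0.12. The part of brown adipocytes or muscle in the Fabp3 values was not tested.

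**Figure D3:**
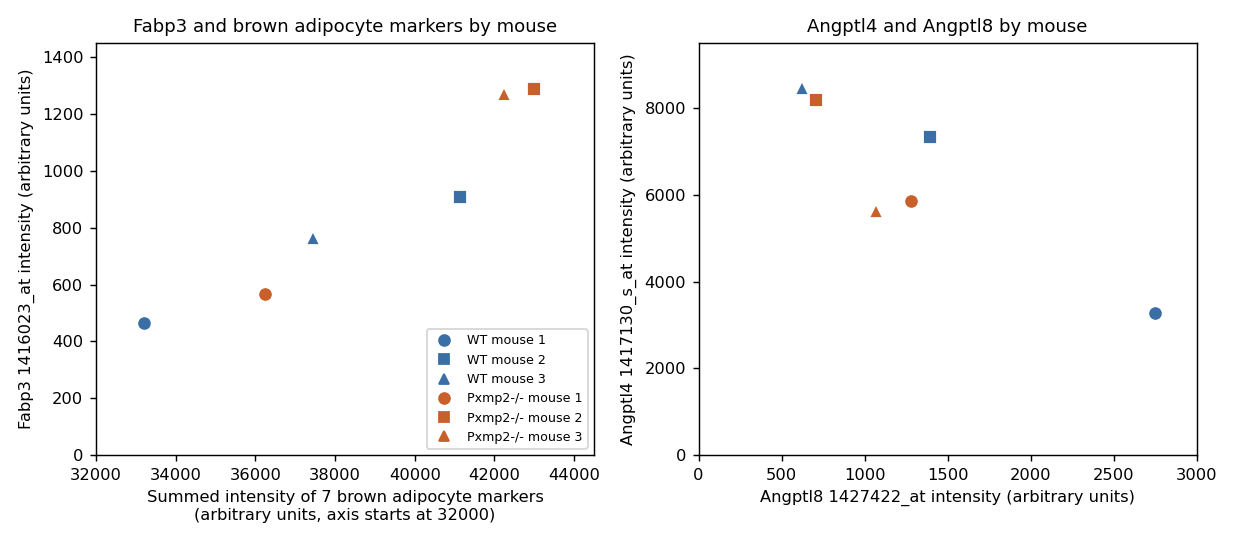
The first panel sets Fabp3 1416023_at intensity against the summed intensity of 7 brown adipocyte markers, and the second sets Angptl4 1417130_s_at against Angptl8, 1 point per mouse and both in arbitrary units. Fabp3 and the summed brown markers rank the 6 mice alike, from WT 1 at 464 to Pxmp2-/- 2 at 1286, and WT mouse 1 stands apart with the lowest Angptl4 (3276) and the highest Angptl8 (2752).

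Many members sat close to the top of the intensity scale, where mice hardly differed. Of the 19 probe sets, 8 stood at 50% or more of the array maximum on all 6 arrays, both of Lpl, both of Fabp5, 2 of Cd36 and 2 of Fabp4. Only 208 probe sets of the whole array did so. The highest mouse exceeded the lowest by 1.05 to 1.19 in these 8, with a median of 1.12, and by 1.18 to 2.95 in the 10 other tested members, with a median of 1.4. Over all 208 probe sets near the maximum the median of this ratio was 1.11, against 1.37 over all tested probe sets. The median fell in steps from 1.53 for probe sets under 1% of the maximum to 1.15 between 25% and 50% and 1.12 above 50%. Against these, Fabp3 1416023_at (2.77), Fabp4 1425809_at (2.95) and Angptl4 1417130_s_at (2.58) lay well above the medians for their level. Whether the top of the scale holds down changes of Lpl, Fabp5, Cd36 or Fabp4 was not tested, because the table gives no saturation flags. The median log2 difference over the 10 members away from the maximum was -0.04.

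**Figure D4:**
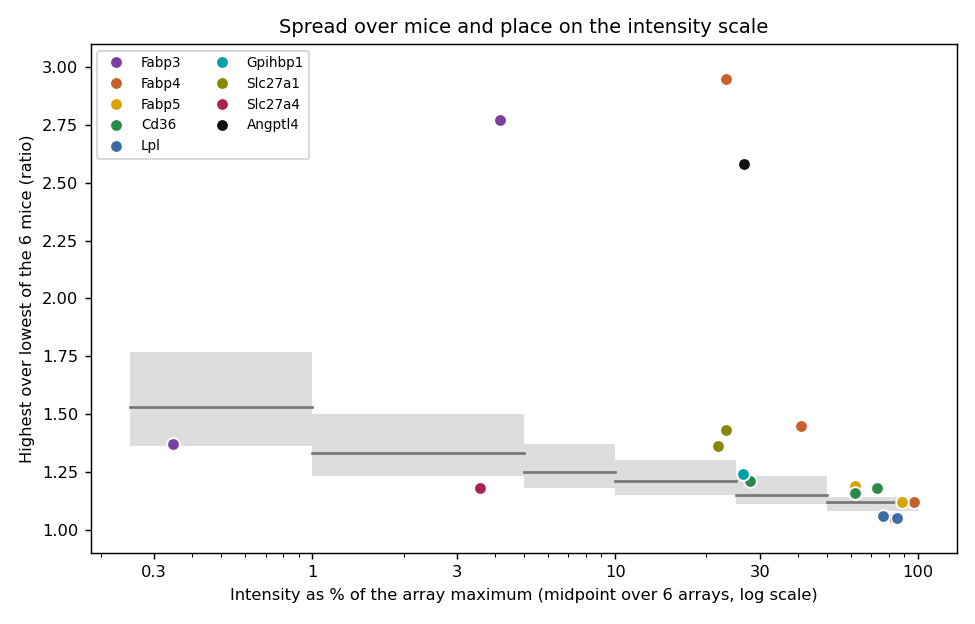
Each point is a tested member probe set, placed by its intensity as a percentage of the array maximum (log scale) and by the ratio of the highest to the lowest of the 6 mice. Grey lines and bands give the median and quartiles of all tested probe sets by their mean percentage. The median ratio falls from 1.53 under 1% to 1.12 above 50%, and Fabp3, Fabp4 and Angptl4 each have 1 probe set between 2.58 and 2.95.

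Mouse WT 3 was often the highest for the members. It had the highest value in 11 of the 18 tested member probe sets (61.1%), among them those of Gpihbp1, Slc27a1, Slc27a4 and Angptl4, against 25.3% of all tested probe sets. WT mouse 1 was highest in none and lowest in 6 (33.3%), of Fabp3, Fabp4, Cd36 and Angptl4, against 15.1% of all tested probe sets. Pxmp2-/- mouse 3 was lowest in 5 (27.8%), of Fabp4, Fabp5, Gpihbp1 and Slc27a4, a share close to its 25.5% of all tested probe sets. Probe sets of one gene share their transcript, so these counts are not of independent values.

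The wider pathway gave no call either. Of 58 listed genes with a named probe set, 46 were tested, and 0 rose and 0 fell past the adjusted threshold in limma. An unadjusted p under 0.05 was found for 8 of their 87 probe sets (9.2%), and groups did not overlap in 15 (17.2%), against 16.6% and 22.8% of all tested probe sets. By the most intense probe set of each gene, 18 genes were fitted higher and 28 lower, with a median of -0.03.

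Within each role the genes with the smallest p were as follows. Among 10 tested lipase and lipoprotein cofactor genes, Sel1l, needed for Lpl to mature in the endoplasmic reticulum, differed by -0.18 ± 0.08 in 1 of 4 tested probe sets (limma adjusted p = 0.32) and by 0.02 to 0.34 in the others. Lipg, an endothelial lipase, differed by 0.30 ± 0.17 and 0.21 ± 0.15 in its tested probe sets. Among 6 lipoprotein receptors and heparan sulfate anchors, the syndecan gene Sdc1 differed by 0.48 ± 0.11 in a dim probe set (limma adjusted p = 0.177) and by -0.03 and -0.11 in its other tested ones. The perlecan gene Hspg2 differed by -0.22 ± 0.10 in one probe set and 0.04 in the other.

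Among 7 other membrane uptake genes, the very long chain acyl-CoA synthetase gene Slc27a2, a relative of Slc27a1 and Slc27a4, was among those with separate groups. It read 678, 534 and 728 in WT mice 1 to 3 and 1006, 818 and 1254 in Pxmp2-/- mice 1 to 3, a log2 difference of 0.64 ± 0.18 (limma adjusted p = 0.202). The caveolin gene Cav2 differed by 0.30 ± 0.13 in a dim probe set, with separate groups. In one at up to 58.1% of the array maximum it differed by 0.10 ± 0.09, with overlap. Among 7 other acyl-CoA synthetases, Acsm1 read 71.1 to 73.8 in WT and 92.4 to 109 in Pxmp2-/- mice, a log2 difference of 0.42 ± 0.09 (limma adjusted p = 0.154). Acsl4, which prefers arachidonic acid, differed by 0.54 ± 0.17 in a dim probe set that averaged 93.6 in WT and 145 in Pxmp2-/- mice. In the other tested one, which averaged 815 in WT and 785 in Pxmp2-/- mice, it differed by -0.05 ± 0.11.

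Of 7 other binding protein genes tested, Acbd5, which tethers peroxisomes to the endoplasmic reticulum and binds acyl-CoA, had separate groups in 1 of 2 probe sets, without passing the threshold. That probe set (1446433_at) read 187, 232 and 212 in WT mice 1 to 3 and 137, 154 and 126 in Pxmp2-/- mice 1 to 3, a log2 difference of -0.55 ± 0.11 (limma adjusted p = 0.144). The other (1428236_at) differed by 0.05 ± 0.10. The myelin fatty acid binding protein gene Pmp2 read 99.1 to 169 in WT and 199 to 249 in Pxmp2-/- mice, a log2 difference of 0.76 ± 0.18 (limma adjusted p = 0.173). Of 9 regulators, Ppargc1a differed by 0.26 ± 0.14 in the probe set with the smallest p (limma adjusted p = 0.38) and by -0.07 to 0.35 in its other 4 tested ones. The retinoid X receptor gene Rxra differed by -0.22 ± 0.12 in 1454773_at and by 0.10 ± 0.09 in 1425762_a_at (limma adjusted p = 0.385 and 0.608). Pparg, the main driver of the uptake genes in fat, averaged 6643 ± 297 in WT mice and 6140 ± 794 in mice without Pxmp2 (SD, n = 3 per genotype), a log2 difference of -0.12 ± 0.11 (limma adjusted p = 0.604).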

How the data were processed

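The authors deposited a table of probe set intensities on a linear scale for 6 arrays, and RNA was biotin-labelled by an Affymetrix protocol, per the labels. The sources used here do not say how probe signals became these values. Groups and mouse numbers came from the titles; 0 columns were left unmatched and 0 were identical. Intensities were transformed to log2(intensity + 16). The 27022 probe sets with a mean on this scale above the 40th percentile (6.232, which corresponds to an intensity of 59.1) were tested between genotypes. The test was limma 3.58.1 under R 4.3.3 (lmFit, eBayes, two-sided, Benjamini-Hochberg over all tested, threshold 0.05). The fit was tested on simulated data with normal noise at the within-group SD of each probe set. It called 35.5% of added 1.5-fold changes, 74.6% of 2-fold and 93% of 3-fold ones, and 0.0239% of unchanged probe sets. The annotation gave 34945 probe sets a single symbol, 932 several and 9160 none. Chromosomes came from RefSeq (GRCm38.p6); the files name no build, so no coordinates are given. All 10 members were named with every probe set and, per pathway role, up to 2 genes of smallest p. The members and lists were chosen with earlier results of these data known. The labels do not say that equal mouse numbers mark pairs, and mice were not paired in the main fit. Deviations of same-numbered mice had correlations of 0.0222, 0.0443 and -0.119, against -0.155 to 0.138 for the other combinations. With 3 mice per group this cannot exclude pairs. The alternatives were other scalings, pseudocounts, level filters, thresholds, a variance trend, a replicate block and single arrays left out. The number of arrays limits the precision. Plots used matplotlib 3.10.9.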

Additional observations from a re-analysis of the deposited data

How the results depend on the processing

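No member probe set and no pathway gene passed in any of the 14 alternative fits, which left out each array, added the replicate block or a mean-variance trend, dropped or raised the level filter, used a pseudocount of 1 or 64, or rescaled by quantiles or medians, nor did any member at an adjusted p under 0.10. The count over all probe sets, 17 on all 6 arrays, was 1 with no level filter, 34 with the trend, 31 at 0.10, 1 with the replicate block and 1 to 33 without single arrays (6, 2 and 1 without WT mice 1 to 3, and 33, 1 and 1 without Pxmp2-/- mice 1 to 3). The replicate block is given because titles share numbers, which the labels do not say mark pairs. Members with an unadjusted p under 0.05 numbered 1 with the trend, 1 with the block and 2 without Pxmp2-/- mouse 1, against 0 on all arrays. They were Fabp5 1416022_at with the trend and Fabp3 1416023_at with the block (limma adjusted p = 0.259 and 0.276). Without Pxmp2-/- mouse 1 they were Fabp3 1416023_at and Fabp4 1425809_at (limma adjusted p = 0.154 and 0.237). The median over members stayed between -0.07 and -0.0023 without single arrays. At 75% of the array maximum 4 member probe sets counted as near it. After median centring 2 member probe sets (11.1%) had separate groups, against 24.2% of all tested. Without single arrays, which leaves fewer values to overlap, 1 to 6 did (5, 2 and 3 without WT mice 1 to 3, and 6, 4 and 1 without Pxmp2-/- mice 1 to 3). These are 5.56% to 33.3% of members, against 29.8% to 41.4% of all tested, and below the share of all tested in each case; these were added after seeing the data. Some differences changed sign. After quantile normalization they were 0.0159 for Lpl 1415904_at, 0.0052 for Fabp4 1417023_a_at and 0.0387 for Fabp4 1451263_a_at. Without single arrays they ranged from -0.29 to 0.40 for Angptl4 1417130_s_at, -0.0669 to 0.0062 for Fabp4 1417023_a_at, -0.195 to 0.0741 for Fabp4 1424155_at, -0.0182 to 0.018 for Fabp4 1451263_a_at, -0.0794 to 0.044 for Cd36 1450884_at, -0.0364 to 0.183 for Slc27a1 1422811_at and -0.167 to 0.0919 for Slc27a1 1435658_at. The cause was not tested.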
